A study of Mus musculus with 12 samples.

Results

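The 9 genes Lig1, Lig3, Xrcc1, Parp1, Parp2, Hpf1, Aptx, Polb and Tdp1 encode the DNA ligases and core factors of single-strand break repair. They were found by symbol in the gene count table, where 9 of 56748 genes belonged to this set, and by gene name in the splicing event table, where 18 of 18777 events did. G1E-ER4 cells are a murine GATA1-null proerythroblast line with a GATA1-estrogen receptor fusion, in which estradiol sets off erythroid differentiation. Poly(A) RNA was sequenced after 24 h of estradiol in 3 Sf3b1 K700E/+ libraries and 3 Sf3b1 +/+ libraries. Both genotypes were made in this line by CRISPR-Cas9 with a hygromycin cassette that flippase then removed, and each genotype was 1 clone, so that the mutation and other differences between clones cannot be told apart. Libraries of cells without estradiol are part of the series and were not analysed here.

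A break in one strand of DNA is found by PARP1 or PARP2, which attach ADP-ribose chains to themselves and to nearby proteins, with HPF1 directing the chains to serine. The chains recruit XRCC1, a scaffold that binds DNA ligase 3, polymerase beta and, through phosphorylated sites, the end-cleaning enzymes. Tyrosyl-DNA phosphodiesterase 1 removes trapped topoisomerase 1 from the end, aprataxin removes AMP left by an aborted ligation, polymerase beta fills the gap and ligase 3 seals it. DNA ligase 1 seals longer repair patches and joins Okazaki fragments during replication. SF3B1 is the part of the U2 particle that holds the branch site of an intron, and cells with the K700E substitution, which is recurrent in myelodysplastic syndromes, are known for the use of cryptic acceptors and for altered intron retention.

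The sequences below are those on which the splicing results turn. They come from the GENCODE M21 transcripts of mouse build GRCm38 and were matched to the events, which are in GRCm39, by introns of identical length. Hpf1 had an unannotated exon inside its last intron, the 1616-nt intron after exon 7 of 8, shown first from chr8:60906314-60906444 on the plus strand, with both cryptic acceptor dinucleotides and the cryptic donor in capitals. The annotated acceptor of the same intron, from chr8:60907297-60907346 on the plus strand, follows with its dinucleotide in capitals for comparison.
Hpf1 cryptic exon: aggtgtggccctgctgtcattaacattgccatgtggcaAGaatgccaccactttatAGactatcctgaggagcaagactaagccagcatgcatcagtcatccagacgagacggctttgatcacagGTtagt
Hpf1 annotated acceptor: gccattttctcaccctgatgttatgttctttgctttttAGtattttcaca
The cryptic acceptors lay 18 nt apart, so that the exon was 85 or 67 nt long, and neither length is a multiple of 3. Of the 20 bases before each acceptor dinucleotide, 10 were pyrimidines at the upstream cryptic acceptor, 11 at the downstream cryptic acceptor and 16 at the annotated one.

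Lig3 and Parp2 each had a choice between annotated acceptors, shown as the spliced RNA around the junction with the bases found in the longer path in capitals. The Lig3 junction joins the ends of chr11:82785434-82787655 and the Parp2 junction those of chr14:50807963-50810098, both on the plus strand of GRCm38.
Lig3 longer path: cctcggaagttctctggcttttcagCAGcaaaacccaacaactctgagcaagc
Lig3 shorter path: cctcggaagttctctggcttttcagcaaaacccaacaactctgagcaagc
Parp2 longer path: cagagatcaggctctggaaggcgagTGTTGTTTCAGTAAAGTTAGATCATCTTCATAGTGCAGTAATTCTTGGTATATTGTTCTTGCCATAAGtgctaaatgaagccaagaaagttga
Parp2 shorter path: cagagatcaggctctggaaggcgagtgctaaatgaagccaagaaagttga
The acceptors of Lig3 were 3 nt apart, with CAG as the bases between them, and those of Parp2 were 68 nt apart.

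Between 38785471 and 50077827 reads were assigned to genes in each library, and each of the 9 genes had between 574 and 20036 reads in every library, so that all 9 were kept by the filter on low counts. Replicate 1 stood apart from replicates 2 and 3 in both genotypes, as the chi-square of gene counts divided by its degrees of freedom was 23.9 to 35.8 in pairs that held it and 8.07 to 9.77 in the other pairs. Of 11 erythroid markers, 10 were listed and all 10 were detected, with a summed level of 8872 CPM (read counts scaled to the TMM-normalised size of the library) in Sf3b1 K700E/+ replicate 1 and 10745 CPM in Sf3b1 +/+ replicate 1, against 12602 to 15092 CPM in the other 4 libraries. Sf3b1 itself was at 754 ± 11.97 CPM (SD, n = 3) in Sf3b1 K700E/+ and 747 ± 13.9 CPM (SD, n = 3) in Sf3b1 +/+ cells, and gene counts do not show the substitution. The granulocyte and macrophage markers Lyz2 and Cybb were almost confined to the Sf3b1 +/+ libraries: the list of 6 summed to 7.31 to 23.4 CPM there and to 0.0399 to 0.0668 CPM in Sf3b1 K700E/+, with Elane at 0 in all 6 libraries. The part of these markers in the results below was not tested.

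At the RNA level, Lig3, Xrcc1 and Tdp1 were higher in Sf3b1 K700E/+ than in Sf3b1 +/+ cells, by 1.43, 1.31 and 1.17 fold. No member was lower at this threshold, a Benjamini-Hochberg (BH)-adjusted p under 0.05 by the quasi-likelihood test of edgeR over 12547 genes. At an unadjusted p under 0.05, 3 members were higher and 1, Aptx, was lower, and DESeq2 also called 3 higher and 0 lower. Of all genes tested, 44.4% were called, 21.3% as higher and 23.1% as lower. The 3 calls made 33.3% of the 9 members, below the share of all genes in both directions and above the share called higher. With 9 genes these shares are coarse. In bulk RNA, fewer cells of a type and less RNA per cell cannot be told apart. The median log2 fold change was 0.05 over the 9 members and -0.01 over all genes tested. No member passed the absolute log2 fold change of 1 by which the study named differentially expressed genes, which 10.3% of all genes did. The values of the genotypes did not overlap in 5 of 9 members, against 54.3% of all genes. Replicate numbers were taken as pairing the libraries across genotypes. With the number as a block 6 members were called, Lig3, Xrcc1, Tdp1 and Polb as higher and Parp1 and Aptx as lower, while 56.9% of all genes were called.

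**Figure D1:**
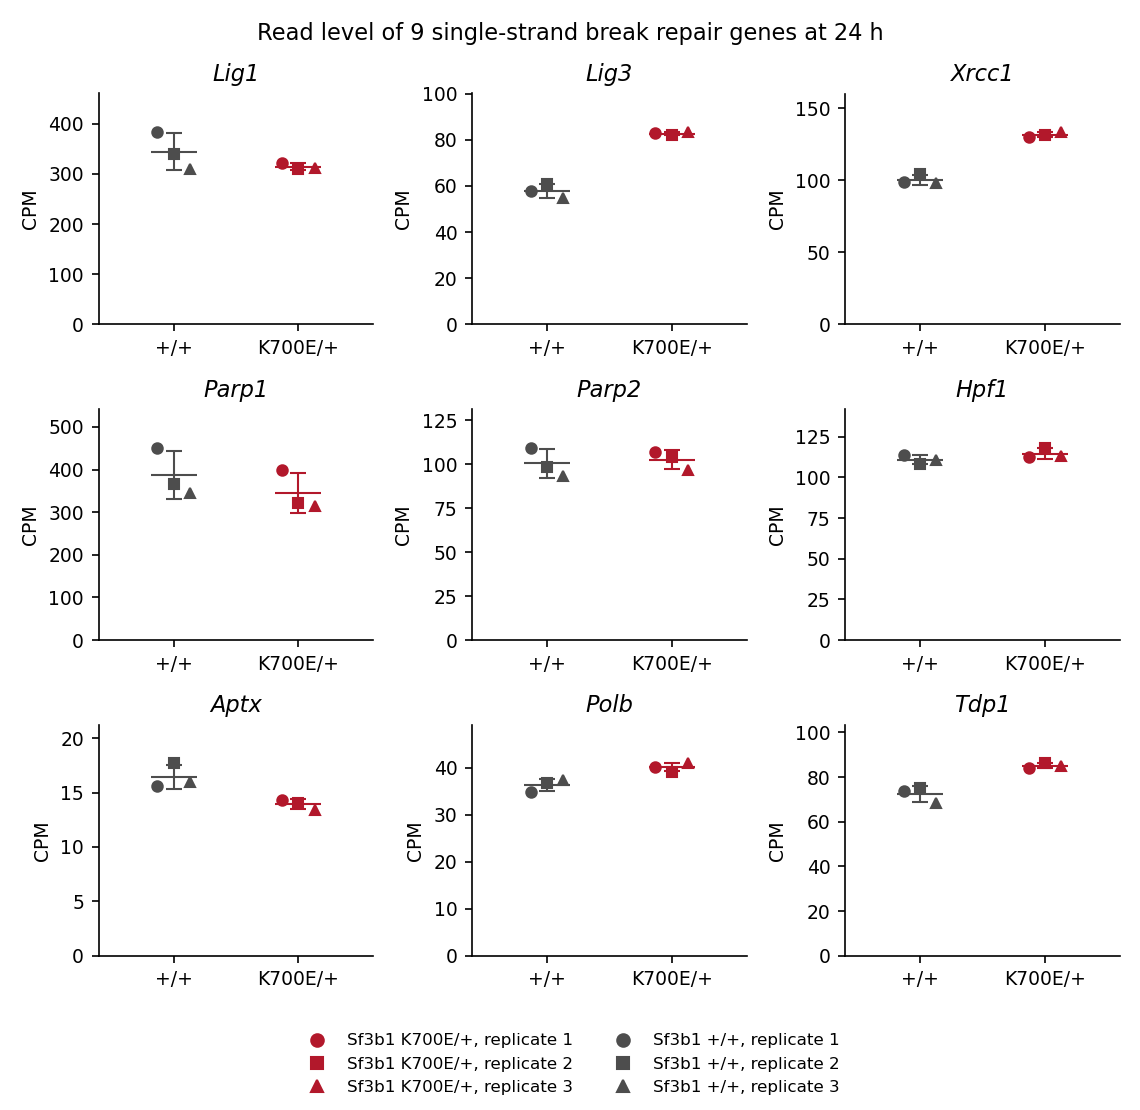
Level of each of the 9 genes in CPM (read counts scaled to library size, vertical axis from 0) in the 3 Sf3b1 +/+ and 3 Sf3b1 K700E/+ libraries at 24 h. Points are libraries, horizontal lines are means and bars are SD (n = 3). The genotypes do not overlap for Lig3, Xrcc1, Aptx, Polb and Tdp1, and replicate 1 is the highest of its genotype for Lig1, Parp1 and Parp2.

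Of the ligases, Lig3 (ENSMUSG00000020697) rose and Lig1 did not pass the test. Lig3 encodes both the nuclear partner of XRCC1 and the only ligase of mitochondria. It was at 82.8, 82.0 and 83.4 CPM in Sf3b1 K700E/+ replicates 1 to 3 and at 57.8, 60.7 and 54.98 CPM in Sf3b1 +/+ replicates 1 to 3. Every Sf3b1 K700E/+ library was above every Sf3b1 +/+ library. The log2 fold change was 0.52 ± 0.06 (SE), with an adjusted p of 0.000151 from edgeR. Lig1 (ENSMUSG00000056394), the replicative ligase, was at 322, 310.1 and 312 CPM in Sf3b1 K700E/+ and at 384, 340.2 and 310.03 CPM in Sf3b1 +/+ cells. The genotypes overlapped, since Sf3b1 +/+ replicate 3 was as low as the Sf3b1 K700E/+ libraries. The log2 fold change of Lig1 was -0.13 ± 0.08 (SE), with an adjusted p of 0.205 from edgeR, and 0.0717 with the replicate block. It was -0.20 without Sf3b1 +/+ replicate 3 and -0.05 without Sf3b1 +/+ replicate 1, and did not pass in either fit.

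Xrcc1 (ENSMUSG00000051768), the scaffold to which ligase 3 binds, rose with it. Its level was 129.8, 131 and 133 CPM in Sf3b1 K700E/+ replicates 1 to 3, against 98.8, 104 and 98.0 CPM in Sf3b1 +/+ replicates 1 to 3. The genotypes did not overlap. The log2 fold change was 0.39 ± 0.05 (SE), with an adjusted p of 0.00042 from edgeR. Lig3 and Xrcc1 passed the test when any 1 of the 6 libraries was left out, with log2 fold changes of 0.48 to 0.57 and 0.38 to 0.43.

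The sensors of breaks did not pass the test. Parp1 (ENSMUSG00000026496), which makes most of the ADP-ribose after a break, was at 399.8, 321 and 315 CPM in Sf3b1 K700E/+ and at 451, 366 and 344 CPM in Sf3b1 +/+ replicates 1 to 3. Each Sf3b1 K700E/+ library was below the Sf3b1 +/+ library of the same number, but the genotypes overlapped, because replicate 1 was the highest of both. The log2 fold change was -0.17 ± 0.12 (SE) with an adjusted p of 0.295 from edgeR, and the replicate block lowered the SE to 0.05 and the adjusted p to 0.00976. Without both replicate 1 libraries, an alternative chosen after the data were seen, the log2 fold change was -0.16 and the adjusted p 0.0283. Leaving out 1 library moved it from -0.28, without Sf3b1 K700E/+ replicate 1, to -0.04, without Sf3b1 +/+ replicate 1, and it passed in none of the 6 fits.

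Parp2 (ENSMUSG00000036023), the second sensor, was at 107, 104 and 96.5 CPM in Sf3b1 K700E/+ and at 109, 98.5 and 93.6 CPM in Sf3b1 +/+ cells. These ranges overlapped, with a log2 fold change of 0.03 ± 0.07 (SE) and an adjusted p of 0.779 from edgeR. Hpf1 (ENSMUSG00000038005), the partner that turns both sensors towards serine, was at 112, 118 and 113 CPM in Sf3b1 K700E/+ and at 114, 108 and 111 CPM in Sf3b1 +/+ cells. Its values overlapped too, with a log2 fold change of 0.05 ± 0.05 (SE) and an adjusted p of 0.529 from edgeR.

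Of the enzymes that clean or fill the break, Tdp1 rose, and Polb and Aptx passed only with the replicate block. Tdp1 (ENSMUSG00000021177) was at 84.2, 86.1 and 85.1 CPM in Sf3b1 K700E/+ and at 73.9, 75.2 and 68.4 CPM in Sf3b1 +/+ cells, with no overlap. Its log2 fold change was 0.23 ± 0.06 (SE) with an adjusted p of 0.0118 from edgeR, which became 0.051 without Sf3b1 +/+ replicate 3, where the log2 fold change was 0.19. Polb (ENSMUSG00000031536), the gap-filling polymerase, was at 40.1, 39.2 and 40.9 CPM in Sf3b1 K700E/+ and at 34.8, 36.8 and 37.3 CPM in Sf3b1 +/+ cells. The libraries did not overlap, but the difference was small, with a log2 fold change of 0.14 ± 0.06 (SE) and an adjusted p of 0.0974 from edgeR, or 0.045 with the block. Aptx (ENSMUSG00000028411) had the fewest reads of the set, at 14.3, 14.1 and 13.4 CPM in Sf3b1 K700E/+ and 15.6, 17.7 and 16.0 CPM in Sf3b1 +/+ cells. All Sf3b1 K700E/+ libraries were below all Sf3b1 +/+ libraries. The log2 fold change of Aptx was -0.24 ± 0.09 (SE) with an adjusted p of 0.054 from edgeR, 0.0202 with the block and 0.0333 without Sf3b1 +/+ replicate 1.

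**Figure D2:**
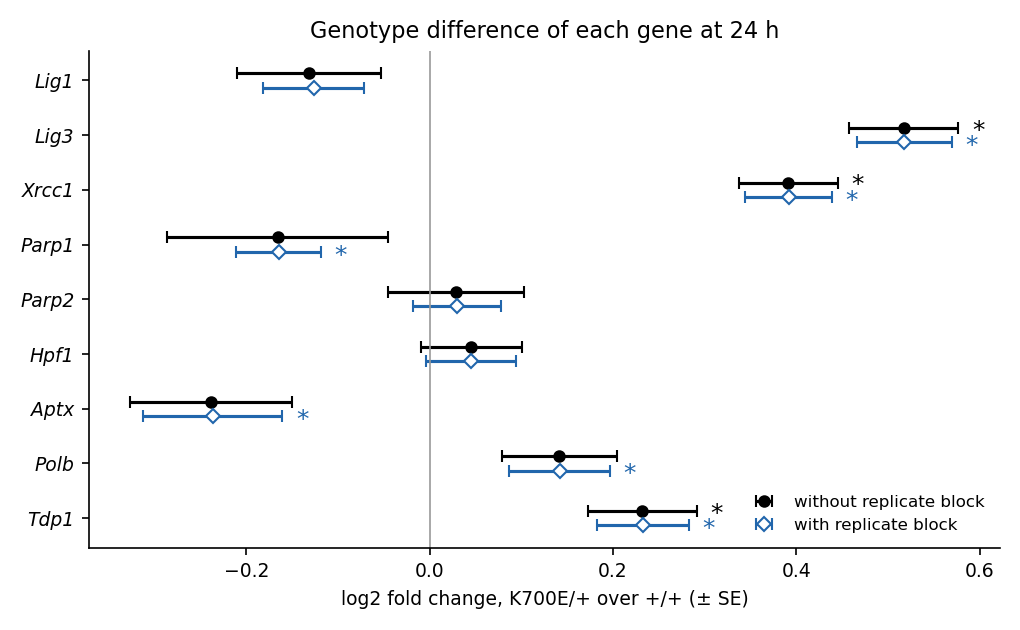
Log2 fold change of each gene, Sf3b1 K700E/+ over Sf3b1 +/+ at 24 h (horizontal axis), with bars of 1 SE, from edgeR without (filled circles) and with (open diamonds) the replicate number as a block. Asterisks mark a BH-adjusted p under 0.05 over all genes tested. The block leaves the positions in place, shortens the bar of Parp1 from 0.12 to 0.05 and adds Parp1, Aptx and Polb to Lig3, Xrcc1 and Tdp1.

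To compare levels between genes, CPM was divided by the length of all exons of the gene in GENCODE M21. In Sf3b1 +/+ cells the order was Lig1 at 80.7 ± 8.67, Parp1 at 73.2 ± 10.7, Parp2 at 27.7 ± 2.25, Hpf1 at 24.05 ± 0.585, Xrcc1 at 17.2 ± 0.569, Polb at 9.21 ± 0.338, Tdp1 at 9.07 ± 0.456, Lig3 at 7.94 ± 0.396 and Aptx at 2.79 ± 0.189 CPM per kilobase (SD, n = 3). Lig1 and Parp1 did not differ beyond their spread, nor did Polb and Tdp1, while Aptx, the lowest, was far below Lig3. In Sf3b1 K700E/+ cells Lig3, at 11.4 ± 0.0962 CPM per kilobase, stood above Tdp1 at 10.7 ± 0.123 and Polb at 10.2 ± 0.219 CPM per kilobase (SD, n = 3). Exons of transcripts that these cells do not use count towards the length, so these levels are approximate.

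Across the 6 libraries, the genes most like Lig3 by Pearson's r of log2 CPM, among 8771 genes at a mean of at least 5 CPM, were Pgs1, a cardiolipin pathway enzyme, at r = 0.9994, Actr5, an INO80 subunit, at r = 0.9993 and Deaf1, a transcription factor, at r = 0.9984. Their log2 fold changes were 0.35, 0.35 and 0.68. Those most like Lig1 were Cep41 at r = 0.99, Taf6l at r = 0.987 and Snrpg at r = 0.984, with log2 fold changes of -0.21, -0.12 and -0.07, none of which passed the test. The libraries fall into 2 genotypes and the genes were picked as the best of many, so these values are descriptions only.

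The partners of these genes in base excision and single-strand break repair, a list of 34 of which 33 were tested, moved in both directions. In all, 10 rose, 7 fell and 16 did not pass the test, and the median log2 fold change was 0.02, against -0.01 over all genes. The 17 calls made 51.5% of the list, beside 44.4% of all genes. Only 8 of the 17 were called when each of the 6 libraries was left out in turn. They were Macrod1, Neil2, Neil3, Pold1, Pold3, Pold4, Pole and Ung. Macrod1 and Neil2 had 0 reads in every Sf3b1 +/+ library and passed the low-count filter through Sf3b1 K700E/+ alone. Their calls therefore say little of stability. The number of calls fell to 8 without Sf3b1 +/+ replicate 2, where the share of all genes called fell from 44.4% to 34.9%. It fell to 10 without Sf3b1 +/+ replicate 3 or Sf3b1 K700E/+ replicate 1, where that share was 34.4% and 38.3%.

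Among the 11 DNA glycosylases, which cut out damaged bases, 4 rose and 2 fell, or 54.5% called beside 44.4% of all genes. Ung, which removes uracil, was at 89.8 CPM in Sf3b1 K700E/+ and 63.7 CPM in Sf3b1 +/+ cells, with a log2 fold change of 0.50 ± 0.10 (SE). Neil3, which acts on oxidised bases, was at 10.8 and 31.8 CPM and fell by 1.56 on the log2 scale. For Neil2, 114 reads were counted in Sf3b1 K700E/+ cells against 0 in Sf3b1 +/+, at least 33.5-fold higher against a floor of 3 reads over the group. Mbd4, which acts on thymine opposite guanine, had a log2 fold change of 0.27 ± 0.08 (SE).

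Of the 7 long-patch and replication factors, Pold1 and Pold3, subunits of polymerase delta, were at 294 and 208 CPM in Sf3b1 K700E/+ and at 180.1 and 130.0 CPM in Sf3b1 +/+ cells, with log2 fold changes of 0.71 and 0.68. Pole, the catalytic subunit of polymerase epsilon, had a log2 fold change of 0.40, and Pold4, the smallest subunit of polymerase delta, fell by 0.81 on the log2 scale. The other 3, Pcna, Rfc1 and Pold2, did not pass. Of the 7 end processing genes, Fen1, the flap nuclease, rose by 0.22 and Aplf, which binds ADP-ribose chains, fell by 0.63 on the log2 scale.

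In ADP-ribose metabolism, 6 of 7 genes were tested. Macrod1, which removes single ADP-ribose units, was counted 501 times in Sf3b1 K700E/+ cells against 0 in Sf3b1 +/+, at least 147-fold higher against the same floor. Oard1, which removes ADP-ribose from glutamate, fell by 0.24 and Parp3, a PARP of double-strand break repair, by 0.94 on the log2 scale, and Tnks, a tankyrase, had a log2 fold change of 0.17 ± 0.05 (SE). Parp3 was called although its genotypes overlapped. In the Lig4 complex, which joins double-strand breaks, Xrcc4, the partner of ligase 4, fell by 0.32 on the log2 scale and Lig4 had a log2 fold change of 0.11 with an adjusted p of 0.507 from edgeR.

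Of 15 genes of S phase and proliferation, 7 rose, or 46.7% beside 21.3% of all genes, and 8 did not pass the test. Their median log2 fold change was 0.23, and the list summed to 9084 to 9409 CPM in Sf3b1 K700E/+ and 6700 to 8079 CPM in Sf3b1 +/+ cells. With the replicate block 11 rose and 1, Tyms, fell, beside 27.7% and 29.2% of all genes. Tyms, at 132 CPM in Sf3b1 K700E/+ and 154 CPM in Sf3b1 +/+, had the lowest log2 fold change of the list, -0.23, with an adjusted p of 0.105 from edgeR, or 0.0122 with the block. Their part in the levels of Lig3, Xrcc1 and Tdp1 was not tested.

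Splicing was measured as PSI, the share of the longer of 2 paths, after each path's reads were divided by the length of that path. An event was tested where each library had 10 or more reads on its paths together, and called at an absolute difference in PSI (ΔPSI) over 0.10 with an edgeR adjusted p under 0.05. Of 17656 events tested, 6.31% were called. The 18 events of the members fell in 5 genes, 6 in Hpf1, 5 in Parp2, 5 in Xrcc1, 1 in Lig1 and 1 in Lig3, while Parp1, Aptx, Polb and Tdp1 had no event in the table. Of these 18 events 2 were called, an intron of Lig1 and an intron of Hpf1 with a lower PSI in Sf3b1 K700E/+ in each. Among all tested intron retention events, 5.49% were called with a lower PSI and 0.859% with a higher PSI, and 2 of the 11 intron retention events of the members were called with a lower PSI. The 6 Hpf1 events share reads and sites, and so do several of Parp2 and Xrcc1, so that the events are not independent. The median ΔPSI of the 18 events was -0.02, against -0.01 over all events, and genotypes did not overlap in 6 of 18 events, against 25.9% of all.

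**Figure D3:**
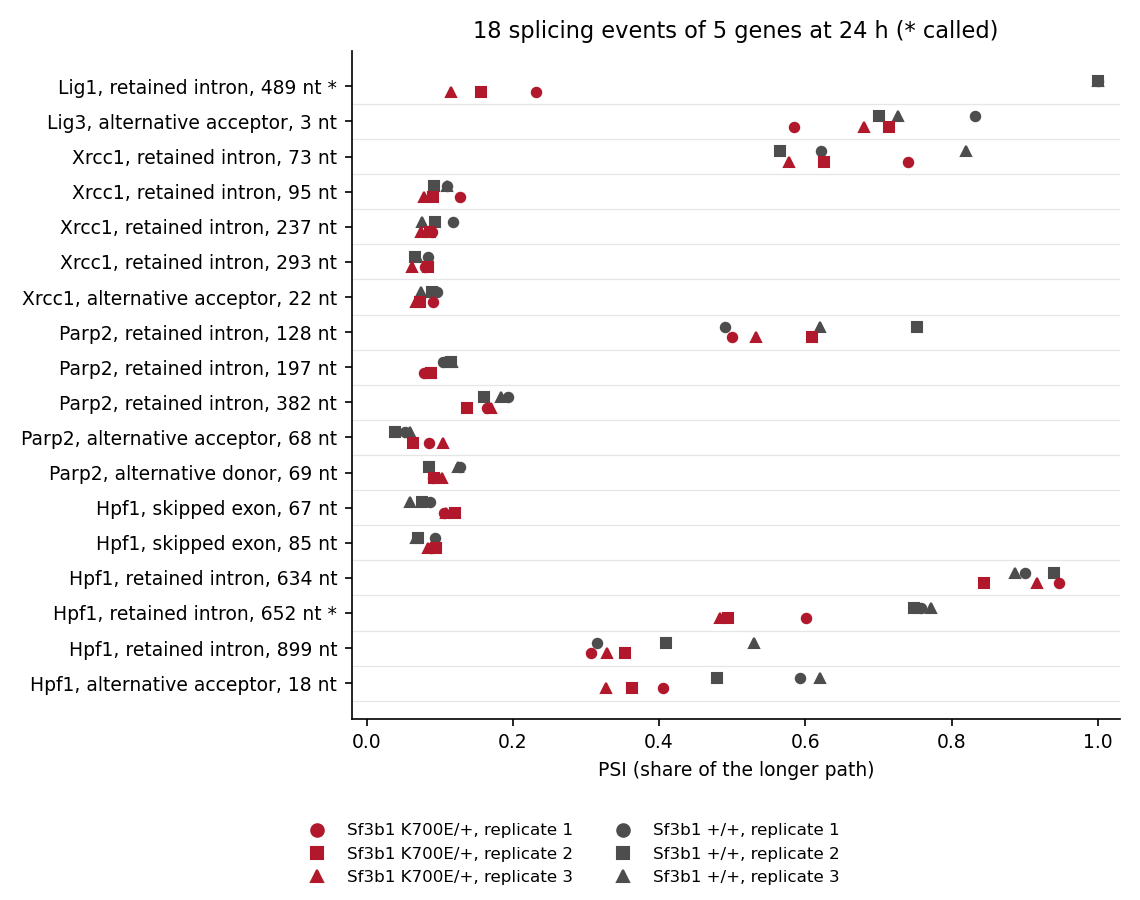
PSI (horizontal axis, share of the longer path) of the 18 events in each library at 24 h, with Sf3b1 +/+ in grey and Sf3b1 K700E/+ in red and 1 point per library. Asterisks mark the 2 called events. In the Lig1 intron the 3 Sf3b1 +/+ libraries are at 1 and the Sf3b1 K700E/+ libraries between 0.116 and 0.232, and most other events lie close together.

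The Lig1 event ran on chromosome 7 between 13020571 and 13021139 of GRCm39, and its spliced path joined an annotated donor at 13020610 to an unannotated acceptor at 13021100, an intron of 489 nt on the plus strand. PSI was 0.232, 0.156 and 0.116 in Sf3b1 K700E/+ replicates 1 to 3 and 1 in every Sf3b1 +/+ library, with an adjusted p of 3.82e-05 from edgeR. The spliced path held 21, 22 and 15 reads in Sf3b1 K700E/+ and 0 in each Sf3b1 +/+ library. The retained path held 45, 29 and 14 reads in Sf3b1 K700E/+ and 13, 25 and 24 in Sf3b1 +/+ cells. Thus the genotypes overlapped on the retained path and were apart on the spliced path.

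The reads of both paths were also scaled to those of the whole gene. Each path covers only a part of the gene, so these values are not shares of Lig1 transcripts. Per 10000 reads assigned to Lig1, the spliced path had 13.01, 15.8 and 11.3 reads in Sf3b1 K700E/+, and the retained path 27.9, 20.8 and 10.5 in Sf3b1 K700E/+ against 8.54, 17.9 and 19.04 in Sf3b1 +/+ cells. Summed over libraries, 58 spliced reads among 43392 Lig1 reads stood against 0 among 41767, at least 18.6-fold higher in Sf3b1 K700E/+ against a floor of 3 reads over the group. PSI compares these 2 paths only, and reads that join the annotated donor to the annotated acceptor are in neither, so a PSI of 0.168 ± 0.0586 (SD, n = 3) is not a share of Lig1 transcripts. With a minimum of 20 reads, or with junction reads alone, this event had too few reads to be tested.

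**Figure D4:**
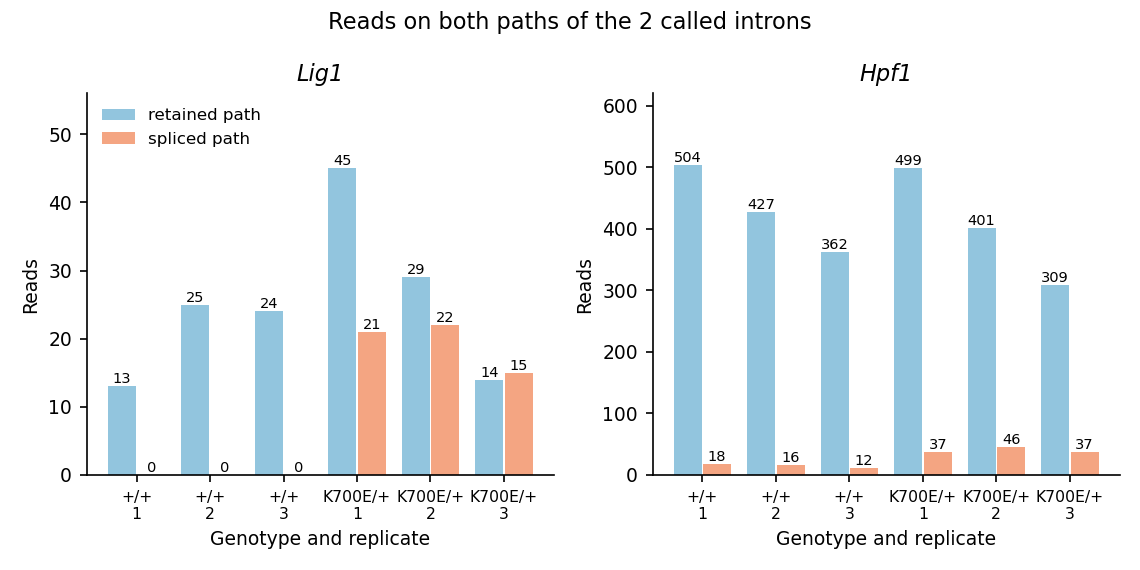
Reads on the retained path (blue) and the spliced path (orange) of the called introns of Lig1 (left) and Hpf1 (right) in each library, with the number of reads above each bar. In both genes the spliced path is higher in all 3 Sf3b1 K700E/+ libraries, with 15 to 22 reads against 0 for Lig1 and 37 to 46 against 12 to 18 for Hpf1, while the retained path overlaps between genotypes.

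The called Hpf1 intron lay in the last intron shown above, on chromosome 8 of GRCm39, from the annotated donor at 61358754 to the downstream cryptic acceptor at 61359406, an intron of 651 nt. PSI was 0.601, 0.494 and 0.483 in Sf3b1 K700E/+ replicates 1 to 3 and 0.758, 0.749 and 0.771 in Sf3b1 +/+ replicates 1 to 3, with no overlap. The ΔPSI was -0.23, with an adjusted p of 0.000518 from edgeR. Its spliced path held 37, 46 and 37 reads in Sf3b1 K700E/+ and 18, 16 and 12 in Sf3b1 +/+ cells, and its retained path 499, 401 and 309 against 504, 427 and 362. The retained path also counts RNA in which the whole 1616-nt intron is unspliced.

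The reads that left the exon 7 donor were therefore counted by destination, a measure chosen after the data were seen. The downstream cryptic acceptor took 37 of 486, 46 of 445 and 37 of 469 spliced reads in Sf3b1 K700E/+, which is 7.61% (95% Wilson interval 5.57 to 10.3), 10.3% (7.84 to 13.5) and 7.89% (5.78 to 10.7). In Sf3b1 +/+ cells it took 18 of 383, 16 of 385 and 12 of 413 reads, which is 4.70% (2.99 to 7.31), 4.16% (2.57 to 6.64) and 2.91% (1.67 to 5.01). These intervals cover counting error only. The means were 8.61% ± 1.499 and 3.92% ± 0.920 (SD, n = 3), a ratio of 2.20, and the genotypes did not overlap. The exact two-sided permutation p was 0.1, the smallest that 3 libraries against 3 allow, and these reads are the ones of the called event, so this is not a second line of evidence.

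The upstream cryptic acceptor, 18 nt away, did not separate the genotypes. It took 3, 8 and 3 reads in Sf3b1 K700E/+ and 6, 3 and 5 in Sf3b1 +/+ cells, or 1.02% ± 0.675 and 1.19% ± 0.394 (SD, n = 3) of the spliced reads, with an exact permutation p of 0.8. At this depth a difference of a few reads could not be seen. The annotated acceptor took 90.4% ± 2.17 and 94.9% ± 1.09 (SD, n = 3), so most spliced reads of this donor skipped the cryptic exon in both genotypes. Reads that ran across the donor into the intron numbered 9.47, 8.54 and 5.12 per 100 spliced reads in Sf3b1 K700E/+ and 12.5, 11.7 and 10.2 in Sf3b1 +/+ cells, with no overlap and an exact permutation p of 0.1, again the smallest possible.

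**Figure D5:**
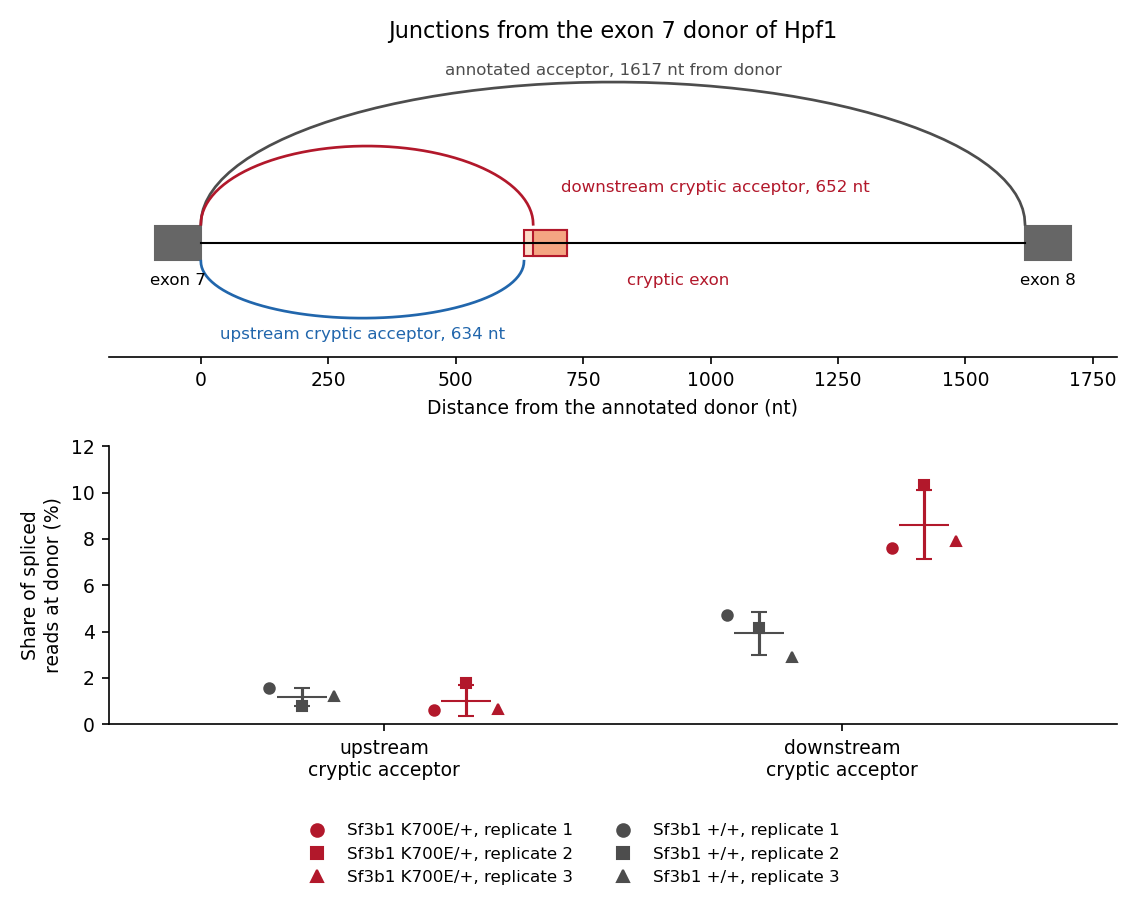
Top, map of the last intron of Hpf1 to scale by distance from the exon 7 donor in nt, with the annotated exons in grey (drawn with a fixed width), the cryptic exon in orange and the 3 junctions as arcs at 634, 652 and 1617 nt. Bottom, share of the spliced reads of the donor (%) that went to each cryptic acceptor, with points for libraries, lines for means and bars for SD (n = 3). The downstream acceptor is at 7.61 to 10.3% in Sf3b1 K700E/+ and 2.91 to 4.70% in Sf3b1 +/+, and the upstream acceptor is under 2% in all 6 libraries.

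The other events around this exon were not called. For the event of its 67-nt form, PSI was 0.106, 0.121 and 0.109 for Sf3b1 K700E/+ replicates 1 to 3. It was 0.0868, 0.0764 and 0.0601 for Sf3b1 +/+ replicates 1 to 3. The genotypes did not overlap, with a ΔPSI of 0.04 and an adjusted p of 0.0553 from edgeR. For the event of the 85-nt form, PSI was 0.0892 ± 0.00582 and 0.0770 ± 0.0139 (SD, n = 3), with an adjusted p of 0.595 from edgeR. Both longer paths share the exon body and its junction to the annotated acceptor, so neither PSI measures its form alone. For Sf3b1 K700E/+ replicate 1, the upstream acceptor junction had 3 reads, beside 88 on the longer path of the 85-nt event. The downstream acceptor junction had 37, beside 96 on the longer path of the 67-nt event. The choice between the cryptic acceptors, as the PSI of the upstream one, was 0.405, 0.363 and 0.327 in Sf3b1 K700E/+ and 0.593, 0.479 and 0.621 in Sf3b1 +/+ cells, with no overlap, a ΔPSI of -0.20 and an adjusted p of 0.072. The longer path of that choice also counts unspliced RNA that crosses the downstream acceptor.

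The Lig3 and Parp2 acceptor choices did not pass the test either. In Lig3 the PSI of the path with the extra CAG was 0.585, 0.715 and 0.680 in Sf3b1 K700E/+ and 0.832, 0.700 and 0.727 in Sf3b1 +/+ cells, which overlapped, with a ΔPSI of -0.09 and an adjusted p of 0.424 from edgeR. Both forms were thus present in every library, from 60, 73 and 64 reads on the longer and 41, 28 and 29 on the shorter path in Sf3b1 K700E/+ against 36, 51 and 36 and 7, 21 and 13 in Sf3b1 +/+ cells. The PSI of the Parp2 path with 68 extra nt was 0.0861, 0.0642 and 0.105 in Sf3b1 K700E/+ and 0.0522, 0.0384 and 0.0595 in Sf3b1 +/+ cells. These did not overlap, but the ΔPSI was 0.04 and the adjusted p 0.082 from edgeR, or 0.023 with the replicate block, and the ΔPSI stayed under the threshold.

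In the remaining 4 events of Parp2 the ΔPSI was between -0.07 and -0.02, and in the 5 events of Xrcc1 between -0.02 and 0.00. Retention of a 208-nt Parp2 intron was 0.0785, 0.0877 and 0.0867 in Sf3b1 K700E/+ and 0.104, 0.115 and 0.117 in Sf3b1 +/+ cells, apart but small, with an adjusted p of 0.185 from edgeR. The PSI of the 237-nt Xrcc1 intron event was 0.0831 ± 0.00790 in Sf3b1 K700E/+ and 0.0956 ± 0.0214 in Sf3b1 +/+ cells (SD, n = 3), with an adjusted p of 0.634 from edgeR. That of the 73-nt Xrcc1 intron event, which has 1 unannotated site, was higher in both genotypes, at 0.648 ± 0.0841 and 0.669 ± 0.134 (SD, n = 3), with an adjusted p of 0.999.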

How the data were processed

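Per the labels, reads were aligned by the authors with STAR 2.7.9 to GRCm39, and the deposited gene table holds raw counts per gene. The deposited event table holds read counts of both paths of events found by KisSplice without a reference, given per read file, and the authors' own test columns were not used. Mates of a library (2 read files) were summed. Libraries at 0 h were not analysed here, so that 6 of 12 libraries enter, and the planned tests at 0 h and of estradiol were not run. The paper names a stranded kit for these libraries, but whether counting used strand is not given in the sources used here. Reads of overlapping antisense genes may therefore be mixed in the counts.

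Genes were tested with the quasi-likelihood test of edgeR 4.0.16 (TMM, filterByExpr, BH adjustment over all genes kept) in R 4.3.3, with DESeq2 1.42.0 and limma 3.58.1 as alternatives. Levels are CPM, counts scaled to TMM-normalised library size. Events were tested with edgeR by the path by genotype term. Scripts were tested on simulated data. Depth was 38785471 to 50077827 counts per library.

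Same-numbered libraries of both genotypes deviated together from their group means, with correlations of 0.627, 0.484 and 0.480 over 8771 genes. Between unlike numbers the correlations were 0.197 and 0.249 for replicates 2 and 3, and -0.505 to -0.422 where replicate 1 was 1 of the pair. Part of the agreement is thus the split of replicate 1 from the others. The numbers were taken as pairing the libraries, although the labels do not say what a number shares. Nothing says that the 3 libraries of a genotype came from separate cultures, so p-values measure only the spread between these libraries. All members and called events are named, with up to 4 called partners per role by lowest adjusted p and the 3 genes most like Lig1 and Lig3. The members and lists were chosen with earlier results of these data known. Leaving out both replicate 1 libraries and counting Hpf1 reads by destination were chosen after the data were seen.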

Additional observations from a re-analysis of the deposited data

How the results depend on the processing

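The 3 member calls (Lig3, Xrcc1 and Tdp1) were the same with DESeq2 size factors, with no filter, with the filter of the study and with the DESeq2 Wald test. With the threshold of an absolute log2 fold change over 1 the calls were 0 for the members and 3 for the partner list. Of all genes, 10.3% passed it. The replicate block gave 6 member calls and 19 partner calls, beside 56.9% of all genes called. It changed no call of a splicing event of the members. Leaving out both replicate 1 libraries gave 5 member calls, beside 52.2% of all genes called. Leaving out 1 library at a time gave 2 to 4 member calls, 8 to 17 partner calls and 2 event calls each time. In the same fits 34.4% to 49.4% of all genes and 4.83% to 5.46% of all events were called. The log2 fold change of Parp2 then ranged from -0.020, without Sf3b1 +/+ replicate 3, to 0.10, and was not called in any of these fits. The event calls fell to 1, that of Hpf1, with a minimum of 20 reads and with junction reads only, since the Lig1 event then had too few reads. The log2 fold changes of Parp1 (-0.28 to -0.04) and Lig1 (-0.20 to -0.05) moved more and were not called either. The ΔPSI of the Hpf1 intron was -0.27 to -0.21 when a library was left out. That of Lig1 was -0.86 to -0.81, which says little of stability, because PSI is at its limit of 1 in every Sf3b1 +/+ library and leaving one of those out cannot move it. On all 6 libraries, limma on logit PSI called both, with adjusted p of 0.0396 and 0.00132. Over all events limma called 554 and edgeR 1114. The planned comparisons at 0 h, of estradiol, of their interaction and the fit over all 12 libraries were not run. The Lig1 event, at 13 reads in its least covered library, is limited by depth.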
